A study of Mus musculus with 8 samples.

Results

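Transcription factors that pattern the limb and the embryonic connective tissue, 10 in number, were followed through 8 poly(A) RNA libraries of mouse embryonic fibroblasts: Tbx2, Tbx3, Tbx4, Tbx5, Tbx15, Pitx1, Emx2, Foxf1, Prrx1 and Twist1. The 10 genes were taken by name, with earlier results of these data known, from a table of 39017 gene identifiers. Of the 10, 8 had enough counts to be tested. The T-box genes encode proteins with a shared DNA-binding domain. Tbx5 marks the forelimb field, Tbx4 and the homeobox gene Pitx1 mark the hindlimb field, and Tbx2 and Tbx3 encode repressors that hold down cell cycle inhibitors. Prrx1 and Twist1 are general factors of limb and craniofacial mesenchyme, Tbx15 and Emx2 act in the skeleton of the limb and its girdle, and Foxf1 belongs to the mesenchyme around gut and lung. Fibroblasts keep part of the positional code of the tissue they came from, which is why such genes can be read in culture.

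The fibroblasts came from E13.5 embryos and were either control cells or cells depleted of Mettl3, the catalytic subunit of the enzyme that places N6-methyladenosine (m6A) on mRNA. In the knockout, Cre recombinase was switched on by 500 nM 4-hydroxytamoxifen given for 48 h, and loss was examined after 7 days. The labels name neither the driver of Cre nor the floxed exons, and they leave unsaid if controls were given the drug too and if replicates came from different embryos. For each genotype there is total RNA from cells without stress, and RNA from a pellet enriched in stress granules after 30 min of sodium arsenite at 500 µM, with 2 biological replicates in each of the 4 groups. Stress granules are cytoplasmic assemblies of stalled mRNAs and proteins. Stress and fraction changed together, so a granule to total ratio cannot be assigned to either of them.

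Total counts per library lay between 67257220 and 123508539, and 3 counts equal 0.0264 to 0.0441 CPM (counts relative to the scaled size of the library). Mettl3 itself stood at 24.9 to 25.4 CPM in control total RNA and at 6.0 to 7.35 CPM in knockout total RNA. All 10 fibroblast markers were expressed, with a summed level of 6050 to 8980 CPM, against 155 to 890 for 7 epithelial, 28.1 to 58.4 for 5 macrophage, 6.35 to 20.5 for 5 endothelial, 19.8 to 48.4 for 5 neural, 1.92 to 6.72 for 5 muscle and 23.7 to 79.8 for 4 chondrocyte markers. None of these markers was at 0 in every library, but 3 endothelial, 3 neural, 4 muscle and 3 chondrocyte markers averaged under 1 CPM. Col1a1, Col1a2, Vim and Fn1 made up most of the fibroblast sum. Pdgfra (1.39 to 3.47 CPM), Thy1 (3.3 to 12.9), Lum (2.23 to 5.22) and Dcn (8.01 to 18.3) were low. The epithelial markers Krt18 (46.9 to 707 CPM) and Krt14 (48.7 to 141) exceeded each of these in every library. Krt14 spanned that range between the control granule replicates. Which cells carried these keratins was not tested. The knockout total libraries stood apart: over 10212 genes their replicates differed by a median of 0.813 on the log2 scale, against 0.312 in control total, 0.101 in control granule and 0.134 in knockout granule libraries. Mitochondrially encoded RNA made up 7.6% of counts in knockout total replicate 1, 6.16% and 8.81% in the knockout granule libraries, and 0.59% to 0.881% in the other 5.

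The knockout removes the writer of m6A, so copies of its commonest recognition motif in these mRNAs are shown first. That motif is GGACT in the coding strand, and it was counted, on that strand only, in the longest coding transcript of each gene (GENCODE M21, GRCm38). Tbx2 had 0 copies in 3626 bases, although 98.2% of transcripts of similar length held at least 1. Foxf1 had 1 copy in 2415 bases, outside its coding sequence, whereas Tbx3 had 7, Tbx15 and Prrx1 had 8 each, Emx2 and Tbx4 had 6 each, Pitx1 had 3, Twist1 had 2 and Tbx5 had 1. All 15380 tested protein-coding genes had a median of 1.06 copies per kb. Tbx15 had 2.24, Emx2 2.06, Tbx4 1.9, Tbx3 1.4, Prrx1 and Twist1 1.23 each, Pitx1 1.22, Foxf1 0.41 and Tbx5 0.25. Among transcripts of similar length, 29.6% held at least as many copies as Tbx3, 61.7% as Twist1 and 92.3% as Foxf1. A link between motif copies and granule level was not tested. The coding sites of Tbx3 and Twist1, the genes below whose control granule level was above total RNA by the test, follow with the motif in capitals. All lie on the plus strand of GRCm38, and no m6A was measured in these libraries, so that a match says nothing about whether a site was methylated.
Tbx3 chr5:119672085-119672105: cgggcgccGGACTtcgccatg
Tbx3 chr5:119674052-119674072: ggtgctctGGACTggataaaa
Tbx3 chr5:119680992-119681012: cagcgcagGGACTgtctgggg
Tbx3 chr5:119682910-119682930: gtggctgtGGACTcggggtcg
Twist1 chr12:33958485-33958505: gacgagctGGACTccaagatg

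Levels were compared between genes per kb of exonic length, in control total RNA. Twist1 led with 34.2 ± 4.26 CPM per kb (SD, n = 2, as for every group here). Tbx15 at 5.29 ± 1.36, Emx2 at 5.09 ± 1.71 and Prrx1 at 5.01 ± 1.16 CPM per kb followed and did not differ beyond their spread. Tbx3 stood at 1.82 ± 0.0675 CPM per kb, its paralog Tbx2 at 0.362 ± 0.0304 and Foxf1 at 0.496 ± 0.0124. Pitx1, at 0.067 ± 0.00862 CPM per kb, and Tbx4 and Tbx5, at 0.0118 ± 0.00775 and 0.00892 ± 0.00371, closed the order, and those 2 T-box genes did not differ beyond their spread. In bulk RNA, a low level in every cell and a higher level in few cells cannot be told apart, here or in any result that follows.

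**Figure D1:**
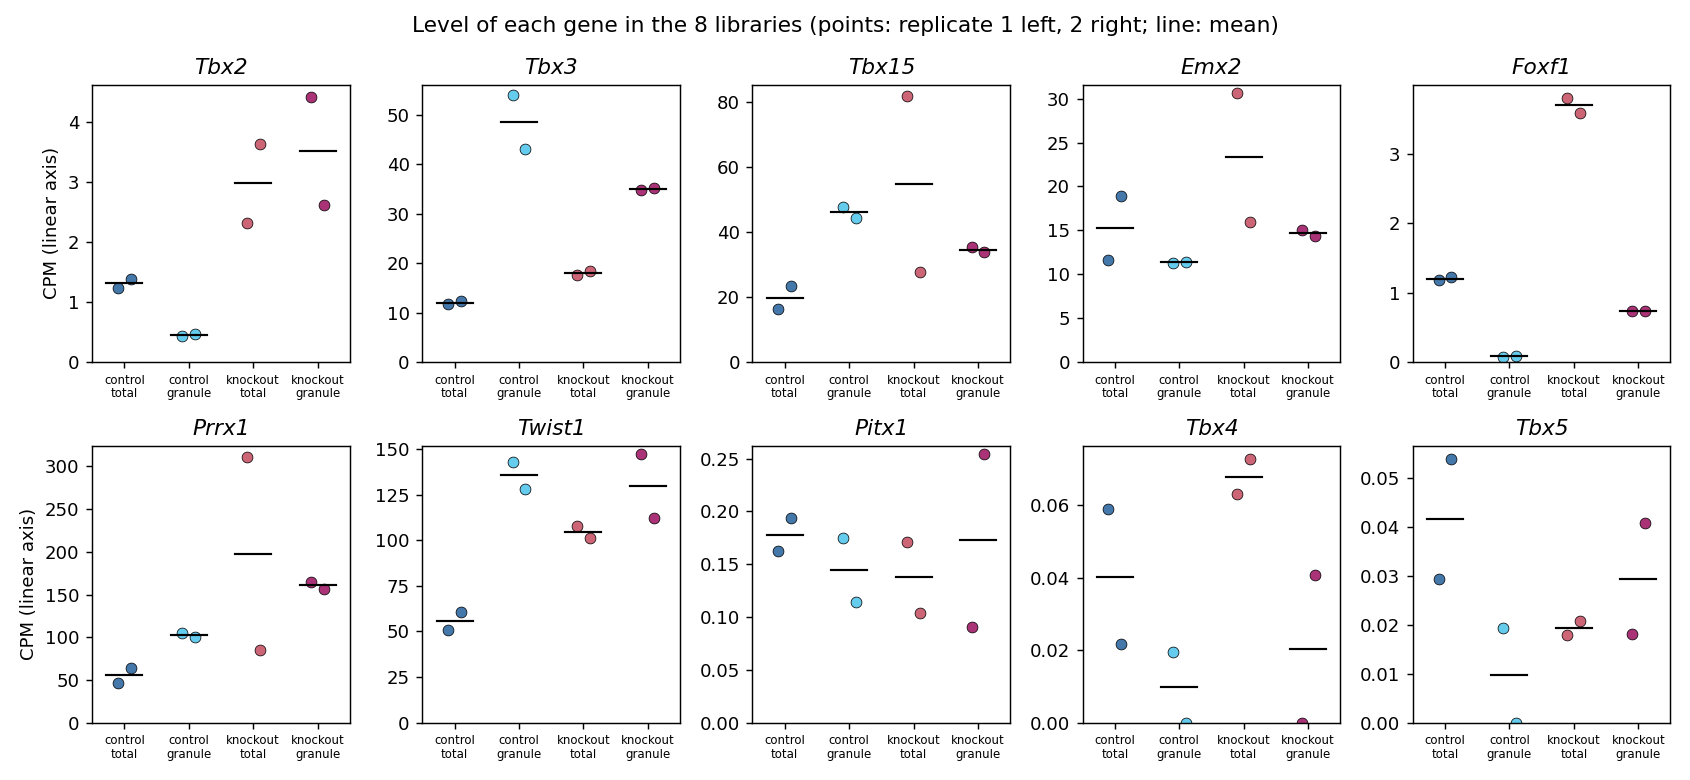
Each panel plots the CPM of a gene on a linear axis, with its own scale, in the control total, control granule, knockout total and knockout granule libraries (points: replicates; line: mean of 2). Foxf1 shows 4 separate levels from 0.0777 to 3.81 CPM, while Prrx1 and Tbx15 spread widely in knockout total RNA, where replicate 1 reached 311 and 82.0 CPM.

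The genes that tell forelimb from hindlimb were close to the detection limit. Tbx4 (chr11:85886422-85916097) had 4 and 2 counts in control total, 2 and 0 in control granule, 7 and 7 in knockout total, and 0 and 4 in knockout granule libraries. Tbx5 (chr5:119832668-119885219) had 2 and 5, 2 and 0, 2 and 2, and 2 and 4 counts in the same order. Neither passed the filter on low counts, and at these counts no difference between groups could be detected for either gene. Pitx1 (chr13:55825051-55836192) was tested at 10 to 25 counts per library, or 0.091 to 0.254 CPM. Its groups overlapped in every comparison and no adjusted p was under 0.69 (edgeR's quasi-likelihood test with Benjamini-Hochberg adjustment, used throughout).

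Foxf1 (chr8:121084386-121088144), a forkhead factor of visceral mesenchyme, had the widest range of group means among the members, 5.18 on the log2 scale. Control total libraries gave 1.18 and 1.22 CPM, control granule libraries 0.0777 and 0.0879 CPM from 8 and 10 counts, knockout total libraries 3.81 and 3.59 CPM, and knockout granule libraries 0.737 and 0.733 CPM. No group overlapped another, and knockout total RNA was highest. Foxf1 fell from total RNA to the granule fraction in control cells: the level dropped by 3.83 ± 0.36 on the log2 scale (14.3-fold, adjusted p = 0.0039), a ratio below that of 99.2% of the tested genes. In knockout cells it fell by 2.33 ± 0.31 (5.03-fold, adjusted p = 0.0042). Within the granule fraction it rose 8.75-fold with the knockout, a log2 change of 3.13 ± 0.35 (adjusted p = 0.0052). In total RNA the knockout value was 1.63 ± 0.30 above control and missed the threshold (adjusted p = 0.069), and removing the GC trend of each library raised it to 2.07 with an adjusted p of 0.016. The summed level of 5 endothelial markers followed this order only in part. It was 6.35 to 8.39 CPM in control granule, 11.1 to 14.8 in knockout granule and 15.2 to 20.5 in knockout total libraries. In control total libraries it reached up to 15.1 CPM and overlapped the knockout granule range, whereas Foxf1 separated these groups. Kdr and Pecam1 made up most of that sum, and single markers differed. Of the 5, Kdr alone was higher in both knockout total libraries (14.1 and 11.4 CPM) than in both control total libraries (7.18 and 9.28). The other markers overlapped there. Cdh5 had 0.528 and 0.427 CPM in knockout granule and 0.709 and 0.457 in control granule libraries. The part of these markers in the Foxf1 result was not tested. The control ratio kept its direction but lost the threshold without control total replicate 2 (-3.76, adjusted p = 0.052), control granule replicate 1 (-3.7, adjusted p = 0.09) or control granule replicate 2 (-3.89, adjusted p = 0.084).

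Tbx2 and Tbx3, closely related T-box repressors, differed most from each other in the control granule fraction. Tbx2 (chr11:85832551-85841948) gave 1.24 and 1.39 CPM in control total, 0.437 and 0.457 in control granule, 2.32 and 3.64 in knockout total, and 4.42 and 2.62 in knockout granule libraries. The control granule libraries were the lowest, and the knockout groups overlapped each other but no control group. Tbx3 (chr5:119670669-119684724) gave 11.7 and 12.3 CPM in control total, 54.0 and 43.1 in control granule, 17.6 and 18.5 in knockout total, and 34.9 and 35.2 in knockout granule libraries. Its control granule libraries were the highest, and none of the 4 groups overlapped.

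In control cells Tbx2 fell in the granule fraction by 1.55 ± 0.40 on the log2 scale (2.94-fold, adjusted p = 0.047), and Tbx3 rose by 2.01 ± 0.26 (4.04-fold, adjusted p = 0.0081). In knockout cells the Tbx3 rise was 0.96 ± 0.25 (adjusted p = 0.036), and Tbx2 gave 0.24 ± 0.37 (adjusted p = 0.68). Knockout granule libraries exceeded control granule libraries 7.87-fold in Tbx2 (log2 change 2.98 ± 0.41, adjusted p = 0.0088), while Tbx3 gave -0.47 ± 0.25 (adjusted p = 0.26). The control ratio of Tbx2 lost its call with the GC trend removed (-1.12, adjusted p = 0.087), and in knockout cells the sign of its ratio turned with that step (-0.65), so its direction there was not settled. The knockout rise of Tbx3 lost its call when only the knockout libraries were fitted (0.88, adjusted p = 0.2).

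Taken within each library, and so free of library scaling, the Tbx3 level per kb was 5.19 and 4.85 times that of Tbx2 in control total RNA and 67.7 and 51.6 times in control granule RNA. The ratio was 4.16 and 2.78 in knockout total and 4.32 and 7.34 in knockout granule RNA. The control granule libraries thus stood alone above all the others, and the knockout groups were apart only by 4.16 against 4.32. Tbx2 and Tbx3 differ in GC content (63.24% and 54.2%), so a GC trend between libraries does not cancel in their ratio. The ratio of Twist1 to Foxf1 went from 63.9 and 73.7 to 2730 and 2150 between control total and granule RNA, and from 42.2 and 41.8 to 295 and 227 in knockout cells. The control granule values rest on 8 and 10 Foxf1 counts. These ratios describe 8 libraries and were given no test.

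**Figure D2:**
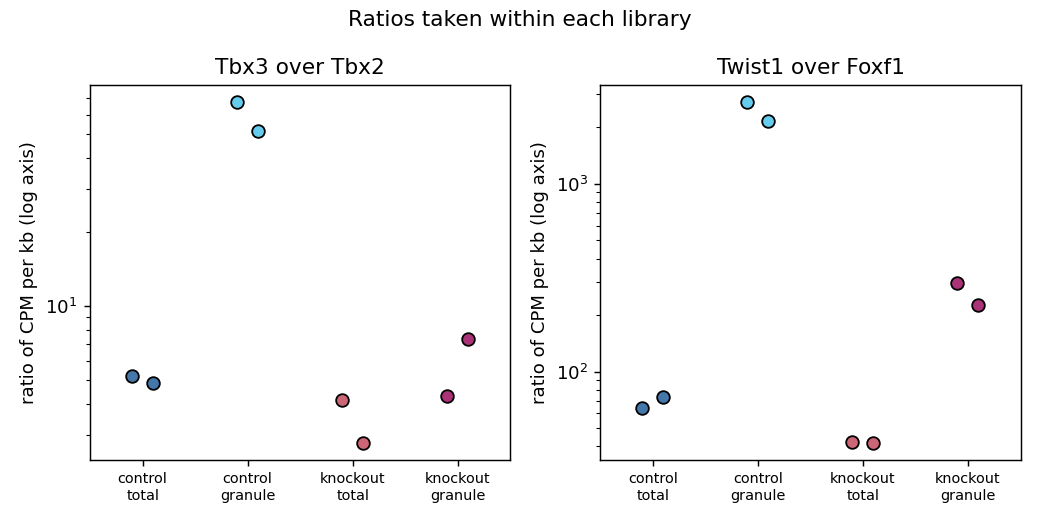
Ratios of CPM per kb between 2 genes in the same library, on log axes, by group (points: replicates). Tbx3 over Tbx2 lies between 2.78 and 7.34 outside the control granule libraries, which sit at 51.6 and 67.7, and Twist1 over Foxf1 is higher in granule than in total libraries of the same genotype.

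Twist1 (chr12:33957671-33959829), a basic helix-loop-helix factor of mesenchyme, gave 50.7 and 60.5 CPM in control total, 143 and 128 in control granule, 108 and 101 in knockout total, and 147 and 112 in knockout granule libraries. Control total RNA was the lowest group and overlapped no other, and the granule libraries of the 2 genotypes overlapped. Twist1 rose in the control granule fraction by 1.28 ± 0.26 (2.43-fold, adjusted p = 0.025). The knockout ratio was 0.30 ± 0.26 (adjusted p = 0.44) and turned to -0.42 with the GC trend removed. The knockout was 0.91 ± 0.26 above control in total RNA (adjusted p = 0.14), which became 1.73 with an adjusted p of 0.046 once the GC trend was removed. With replicate number fitted as well as GC removal, the change was 1.64 and missed the threshold (adjusted p = 0.083).

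Prrx1 (chr1:163245119-163313710), a homeobox gene of limb bud mesenchyme, gave 46.3 and 64.5 CPM in control total, 105 and 100 in control granule, 311 and 85.0 in knockout total, and 165 and 157 in knockout granule libraries. The knockout total replicates enclosed the knockout granule values, and the control groups did not overlap. Its knockout ratio was -0.30 ± 0.52 (adjusted p = 0.72) with all libraries. Without knockout total replicate 1 it was 0.91 (adjusted p = 0.0073), and without replicate 2 of that group it was -1.08 (adjusted p = 0.0011). The direction in knockout cells therefore rested on which library was kept.

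Tbx15 (chr3:99240381-99354259), a T-box factor of skeletal and dermal mesenchyme, showed a like split. It gave 16.2 and 23.4 CPM in control total, 47.7 and 44.4 in control granule, 82.0 and 27.8 in knockout total, and 35.4 and 33.8 in knockout granule libraries. The control granule libraries were above control total, and knockout total replicates again lay on either side of the knockout granule values. The control ratio was 1.22 ± 0.47 (adjusted p = 0.13) and passed without knockout total replicate 1 (1.22, adjusted p = 0.00027) or replicate 2 (1.26, adjusted p = 0.00028), which enter the shared estimate of spread. The knockout ratio was -0.66 ± 0.47 (adjusted p = 0.36), 0.31 without replicate 1 and -1.37 without replicate 2 (adjusted p = 0.00028).

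Emx2 (chr19:59458372-59465357), a homeobox gene needed for the scapula, had the narrowest range of group means among the well expressed members, 0.96 on the log2 scale. It gave 11.6 and 18.9 CPM in control total, 11.3 and 11.4 in control granule, 30.6 and 16.0 in knockout total, and 15.0 and 14.4 in knockout granule libraries. The granule libraries lay below the total libraries of their genotype, and the total libraries of the 2 genotypes overlapped. The ratios were -0.43 ± 0.38 in control and -0.66 ± 0.38 in knockout cells (adjusted p = 0.47 and 0.26). The control ratio was -0.73 without control total replicate 1 and 0.0 without replicate 2, and -0.21 with the GC trend removed. The knockout ratio was -0.13 without knockout total replicate 1 and -1.18 without replicate 2 (adjusted p = 0.0021), so the size of both ratios rested on single total RNA libraries.

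In knockout total RNA the members' replicate differences broadly fell as GC content rose. Replicate 1 exceeded replicate 2 by 1.87 on the log2 scale in Prrx1 (43.65% GC), by 1.56 in Tbx15 (48.23%) and by 0.94 in Emx2 (52.19%). Tbx3, Foxf1 and Twist1, at 54.2%, 54.41% and 59.28% GC, gave -0.07, 0.08 and 0.10. Tbx2, at 63.24%, gave -0.65. Pitx1, at 65.81% GC and only 19 and 10 counts, gave 0.72, against the trend. Over 10212 genes split into 5 classes of about equal size by GC, the median difference went from 1.16 in the lowest to -1.14 in the highest, against -0.61 to 0.33 in control total RNA and no more than 0.08 in either direction in the granule groups. The classes between had knockout total medians of 0.57, 0.05 and -0.58. Every tested member lay above the median of its class, so the members did not follow the trend in size.

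**Figure D3:**
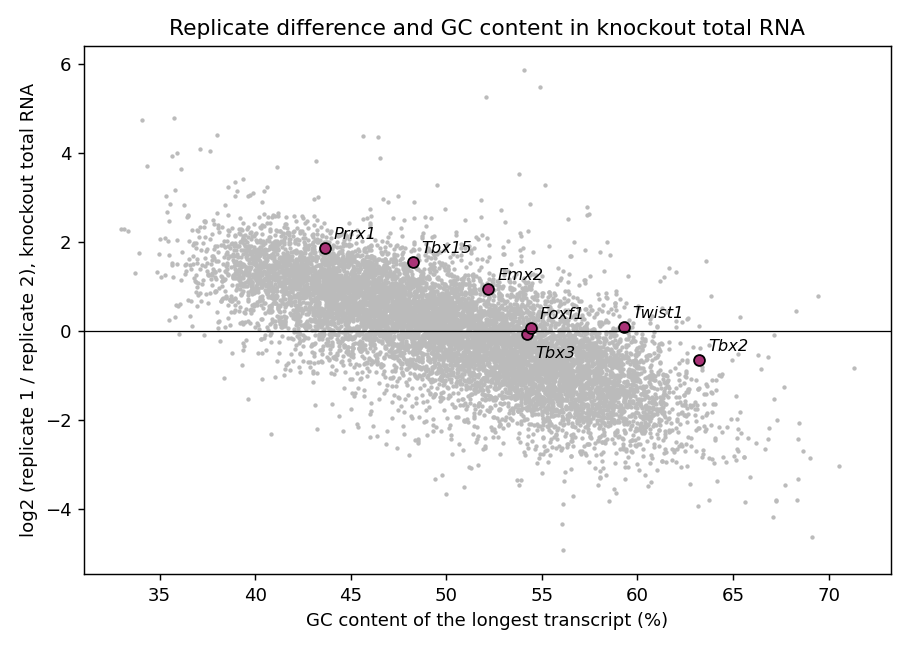
Log2 ratio of knockout total replicate 1 to replicate 2 against the GC content of the longest transcript in percent (grey: 10212 genes averaging 5 CPM or more; dark: 7 members, of which Tbx2 and Foxf1 average less). Prrx1 at 1.87 and Tbx2 at -0.65 lie at opposite ends, with Foxf1 and Tbx3 near 0.

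By count, the control comparison of granule with total RNA called 4 of the 8 tested members, 2 higher (Tbx3, Twist1) and 2 lower (Foxf1, Tbx2). The background was 10.1% of the 18952 tested genes, with 5.89% on the higher and 4.17% on the lower side. Members and the gene lists below were chosen with earlier results of these data known. Counts beside shares of all genes, here and below, therefore describe the lists and test nothing. Among knockout libraries 2 members passed, Tbx3 higher and Foxf1 lower, beside 17.6% of all genes, 9.17% higher and 8.47% lower. Foxf1 and Tbx3 thus passed in the same direction in both genotypes, in comparisons that share no library, though they share the estimate of spread. When a control total or control granule library was left out, at most 1 member, Foxf1, passed in the control comparison, with at most 75 genes in all. Foxf1 and Tbx3 alone passed there without a knockout granule library, and 6 members and at least 8040 genes passed without a knockout total library. Leaving out a control library of either fraction ended the knockout call of Tbx3 (0.87 to 0.95, adjusted p of 0.068 to 0.12). Without either knockout granule library the knockout comparison called 0 members (at most 293 genes in all; the 2 members had adjusted p of 0.06 to 0.22 in those edgeR fits).

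The knockout against control in total RNA called 0 members by edgeR, against 0.412% of all genes. At an unadjusted p under 0.05 there were 6 members, against 24.8% of genes, and DESeq2 called 5 (Foxf1, Prrx1, Tbx15, Tbx2 and Twist1), against 13.2%. Both knockout libraries were above both control libraries for 6 members, a pattern that 24.4% of all genes showed. The log2 changes of those 6 were 1.84 ± 0.54 for Prrx1, 1.63 ± 0.30 for Foxf1, 1.47 ± 0.48 for Tbx15, 1.18 ± 0.38 for Tbx2, 0.91 ± 0.26 for Twist1 and 0.58 ± 0.25 for Tbx3 (adjusted p between 0.069 and 0.2). Emx2 gave 0.61 ± 0.38 with overlapping groups. Without knockout total replicate 1 the edgeR test called 3 members (Foxf1, Tbx2 and Twist1) and 1102 genes, and without replicate 2 it called 7 members and 9627 genes. Prrx1 was 0.62 without replicate 1 and 2.60 without replicate 2, and Tbx15 was 0.49 and 2.16. With the GC trend removed Prrx1 was 1.14.

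In the granule fraction the knockout raised 2 members, Foxf1 and Tbx2. Of all genes 9.45% were called there, 5.79% higher and 3.66% lower. Groups did not overlap for 6 of the 8 members, but the same held for 77.0% of all genes. Prrx1 gave 0.65 ± 0.52, Emx2 0.38 ± 0.38, Tbx15 -0.41 ± 0.47 and Twist1 -0.06 ± 0.26 (adjusted p between 0.45 and 0.9). Both calls were lost without control granule replicate 1 or 2 (Foxf1 2.98 and 3.16, Tbx2 2.87 and 2.95) or knockout granule replicate 1 (3.07 and 2.5), where at most 40 genes in all were called.

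The granule to total ratio was also compared between genotypes, by an interaction term. That term called 0 members by edgeR, against 0.517% of genes. At an unadjusted p under 0.05 it gave 5 members, against 25.8%, and DESeq2 called 3 (Tbx15, Tbx2 and Tbx3), against 14.5%. The differences, knockout minus control, were 1.80 ± 0.54 for Tbx2, 1.5 ± 0.45 for Foxf1, -1.06 ± 0.35 for Tbx3, -1.88 ± 0.66 for Tbx15, -1.19 ± 0.74 for Prrx1 and -0.98 ± 0.36 for Twist1 (adjusted p between 0.11 and 0.33). With the GC trend removed Tbx3 (-1.58, adjusted p = 0.026) and Twist1 (-2.07, adjusted p = 0.046) passed, with 1799 genes in all, while Tbx2 shrank to 0.48, Foxf1 to 0.95 and Prrx1 to -0.36. With replicate number fitted as well, Tbx3 still passed (-1.55, adjusted p = 0.049) and Twist1 did not (-2.0, adjusted p = 0.07). Without knockout total replicate 1 the test called Tbx2 (1.5), Tbx3 (-1.1) and Twist1 (-0.94), with 3712 genes in all. Without replicate 2 it called those 3, Prrx1 (-2.01) and Tbx15 (-2.63), with 9349 genes in all. A genotype effect on the ratio was thus called for some members only under other settings than the one used here.

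**Figure D4:**
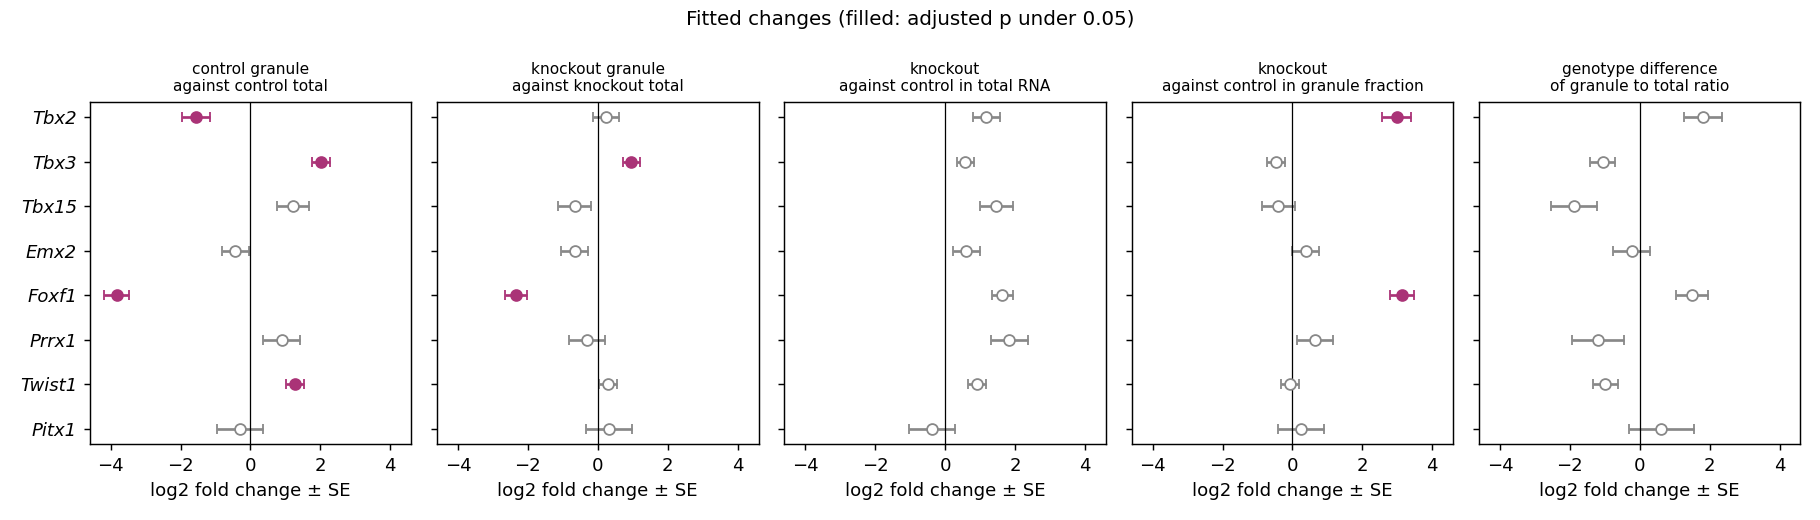
Log2 fold changes ± SE of the 8 tested members in the 5 comparisons (filled: adjusted p under 0.05). Foxf1 lies at -3.83 and -2.33 in the granule to total comparisons and, with Tbx2, near 3 for knockout against control in the granule fraction.

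Genes that start or lie next to the members were read as well. Fendrr, a long noncoding RNA that starts 1276 bases from Foxf1 on the opposite strand, had 2 and 0 counts in control total, 0 and 2 in control granule, 51 and 21 in knockout total, and 0 and 0 in knockout granule libraries. It was at least 11.7-fold lower in knockout granule than in knockout total RNA, taking 3 counts per library as the floor (adjusted p = 0.023). Like Foxf1, it was highest in knockout total RNA. Emx2os, which overlaps the start of Emx2 on the opposite strand, gave 1.26 and 1.2 CPM in control granule and 2.86 and 1.72 CPM in knockout total libraries, and no comparison called it. Whether counting used strand is not given in the sources used here, so reads of Emx2 and Emx2os cannot be told apart over the 8.79% of Emx2 exonic sequence that other genes share, nor over the 10.28% of Pitx1, 4.06% of Foxf1 and 1.74% of Tbx3. Gm20471, antisense within Prrx1, was called higher in knockout than control granule RNA (adjusted p = 0.042) on at most 18 counts per library.

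Of 15 genes reported as targets of these factors, all were tested. Over all genes, 10.1% were called in the control granule comparison, 17.6% in the knockout granule comparison and 9.45% between genotypes in granule RNA. In the control granule comparison 3 rose and 1 fell. Fgfr2, a receptor of the limb's FGF signals, rose from 11.2 ± 0.514 to 37.3 ± 2.78 CPM (adjusted p = 0.011), Fgf10, the mesenchymal ligand of that receptor, rose from 1.48 ± 0.311 to 5.64 ± 0.504 (adjusted p = 0.048), and Snai1, a zinc finger repressor of the same family as Snai2, rose 3.05-fold (log2 change 1.61 ± 0.31, adjusted p = 0.022). Ndrg1, reported to be repressed by Tbx2, fell from 299 ± 17.8 to 112 ± 2.2 CPM (adjusted p = 0.019). In knockout cells 1 rose, Fgfr2 (log2 change 0.88 ± 0.26, adjusted p = 0.049), and 2 fell, Ndrg1 (-1.12 ± 0.25, adjusted p = 0.023) and Snai2, a zinc finger repressor of the epithelial state (-2.55 ± 0.68, adjusted p = 0.039, or -0.87 without knockout total replicate 1). The knockout lowered 2 in the granule fraction, Snai1 (-1.24 ± 0.31, adjusted p = 0.044) and Fgfr2 (-0.98 ± 0.26, adjusted p = 0.05 as rounded, at the threshold). Of 16 alternatives, the Snai1 call held in 8 and the Fgfr2 call in 7, and the latter was lost under either other scaling. In total RNA the knockout called 0 of the 15 by edgeR, with 7 at an unadjusted p under 0.05, where 0.412% and 24.8% of all genes passed. The list's median change in control granules was 0.05, against -0.06 for all genes. For the related transcription factors and the limb bud signals described next, that median was 0.37 and 0.22.

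Among 48 related transcription factors, 39 were tested. The counts below stand beside 10.1% of all genes called in control cells, 17.6% in knockout cells and 9.45% between genotypes in the granule fraction. In control cells 4 rose in the granule fraction and 2 fell. The falls were Lhx2, a LIM homeobox gene, from 0.514 ± 0.209 to 0.0613 ± 0.0369 CPM (adjusted p = 0.022), and Foxd1, a forkhead gene, from 2.08 ± 0.481 to 0.313 ± 0.00407 (adjusted p = 0.016). Sp8, a zinc finger gene of the limb ectoderm, rose from 2.91 ± 0.934 to 13.8 ± 0.941 CPM (adjusted p = 0.013). In knockout cells 4 rose and 7 fell, among them Osr2 (2.90 ± 0.35), Alx1, a homeobox gene of craniofacial mesenchyme (-2.88 ± 0.52), and Lhx2 (-2.86 ± 0.52). The knockout raised 2 and lowered 3 in the granule fraction, with Osr2, a zinc finger gene of joints and palate, going from 12.0 ± 0.649 to 94.1 ± 21.4 CPM (adjusted p = 0.0061) and Msx2, a homeobox target of BMP signals, from 9.59 ± 0.269 to 2.37 ± 0.078 (adjusted p = 0.012). Irx3 gave 2.37 ± 0.36 and Sp8 -2.66 ± 0.36 there. Hand1 was called higher in knockout granule RNA on 21 and 50 counts, against 2 and 0 in knockout total RNA, and kept the call in 7 of 16 alternatives. It lost it without any single library other than a knockout total one, with the replicate block, alone or with GC removal, and when only the knockout libraries were fitted.

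Of 26 limb bud signals and receptors, 22 were tested. Between genotypes, 0.412% of all genes were called in total RNA and 9.45% in the granule fraction. Granule against total RNA called 10.1% of all genes in control cells and 17.6% in knockout cells. In total RNA the knockout called 1, Bmp2, a ligand of the TGF-beta superfamily, which rose from 3.31 ± 0.598 to 19.7 ± 6.67 CPM (adjusted p = 0.042), a call lost without any single library other than a knockout total one. In the granule fraction the knockout raised 2, Bmp2 from 1.7 ± 0.00182 to 36.4 ± 13.2 CPM (adjusted p = 0.0037) and the BMP antagonist Grem1 from 88.2 ± 6.8 to 642 ± 231 (adjusted p = 0.019). It lowered 3, among them Wnt7a, a dorsal limb signal, from 76.2 ± 4.57 to 11.1 ± 0.14 CPM (adjusted p = 0.0083), and Ptch1, the Hedgehog receptor and target, from 8.81 ± 1.57 to 2.32 ± 0.204 (adjusted p = 0.01). In control cells 3 rose in the granule fraction (Fgf10, Fgfr2 and the BMP ligand Bmp4, at 1.43 ± 0.30) and 1 fell, Cyp26b1, which degrades retinoic acid (-1.36 ± 0.35). In knockout cells 2 rose, Bmp4 (2.55 ± 0.31) and Fgfr2, and 2 fell, Ptch1 (-2.16 ± 0.28) and Cyp26b1 (-1.66 ± 0.35). The median change of the list with the knockout was 0.53 in total RNA, against 0.02 for all genes. It was 0.6 for the related transcription factors and 0.23 for the reported targets. These medians include the knockout total replicates, which differed by a median of 0.813 on the log2 scale, and were given no test. Of the named calls in these 3 lists, most were lost when a library of a compared group was left out, while each kept its sign in every alternative.

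The genes whose profiles lay closest to the 3 members of widest range were found among 12610 genes, by the root mean square distance between centred log2 CPM over the 8 libraries. For Foxf1 they were Stat2 (0.25), Irgm2 (0.29) and Cmpk2 (0.36). For Tbx2 they were Lrp4 (0.21), Pou3f1 (0.29) and Bdh2 (0.32). For Tbx3 they were Cenpl (0.15), Socs5 (0.17) and Abracl (0.20). All share these 8 libraries with the members, and the distances are descriptions.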

How the data were processed

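RNA sequencing counts of 8 libraries were analysed, 2 for each of 4 groups. The authors deposited raw counts per Ensembl gene, 1 column per library, not pooled, per the file headers. STAR and DESeq2 are named in the submitters' processing notes, with the GRCm38 and mm10 builds, while roles, versions, the counting program and the strand setting are not given in the sources used here. Of 39017 identifiers, 37607 matched the GENCODE M21 annotation (GRCm38), which gave names, lengths, GC content and sequences.

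Counts were fitted in R 4.3.3 with edgeR 4.0.16 (quasi-likelihood F-test, robust, TMM scaling, filterByExpr), as 4 group means over all 8 libraries, leaving 4 residual degrees of freedom. The 5 contrasts were tested over 18952 genes with Benjamini-Hochberg adjustment, and a gene with an adjusted p under 0.05 is called. SE values derive from the F statistic. CPM use TMM-scaled library sizes, and log2 CPM a prior count of 2. The procedure was tested on simulated counts with the same spread in every group, no GC trend, and changes in control granule libraries only. That test does not cover the uneven replicate spread and GC trend of the knockout total libraries. Precision follows from 2 libraries per group. The p-values rest on replicate spread estimated over all 4 groups together, not on the compared groups alone. Members and gene lists were chosen with earlier results of these data known. Named genes are all members, up to 4 called genes per list and contrast with the largest change, the 3 nearest profiles, and neighbours overlapping or starting within 5 kb on the opposite strand. A list gene that this rule names is not reported here. Alternatives were DESeq2 1.42.0, other scalings, no expression filter, GC trend removal (lowess, span 0.3), a replicate block, fits limited to the compared groups, and fits without each library in turn.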

Additional observations from a re-analysis of the deposited data

Results flagged for a closer look

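The granule to total ratio differed between genotypes, by the edgeR interaction test itself, for 3 of the 39 related transcription factors tested and for none of the 8 members, where 0.517% of all genes passed. At an unadjusted p under 0.05 there were 5 members (25.8% of all genes), and by DESeq2 3 (14.5%). Sp8 gave -3.97 ± 0.50 (knockout minus control, log2; adjusted p = 0.037): it went from 2.91 ± 0.934 CPM in total to 13.8 ± 0.941 in granule RNA of control cells, and from 7.24 ± 1.49 to 2.18 ± 0.491 in knockout cells. Osr2 gave 3.53 ± 0.47 (adjusted p = 0.039), with 18.6 ± 6.74 and 12.0 ± 0.649 CPM in control total and granule RNA and 12.6 ± 0.951 and 94.1 ± 21.4 in the knockout. Foxc2, a forkhead gene of mesenchyme, gave -2.44 ± 0.39 (adjusted p = 0.047), with 14.3 ± 0.959 and 37.5 ± 2.51 CPM in control and 20.7 ± 2.3 and 10.0 ± 2.15 in knockout cells. All 3 kept their sign in 15 alternatives, and passed in 8, 8 and 7 of them. Each call was lost with any single library left out other than a knockout total one, with adjusted p up to 0.32.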

How the results depend on the processing

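The counts of called members, 4, 2, 0, 2 and 0 in the order control granule against total, knockout granule against total, knockout against control in total RNA, the same in granule RNA, and the genotype difference, moved as follows. With a replicate block they were 2, 1, 0, 2 and 0 (all genes 581, 1898, 0, 670 and 0). Replicate differences correlated between -0.254 and 0.095 across groups, so no effect shared by replicate number was seen. That cannot settle whether the numbers pair the libraries, which the labels leave unsaid. A crossed block, chosen after seeing the data, gave 4, 2, 0, 2 and 0. DESeq2 called 5 members in total RNA and 3 for the genotype difference (all genes 2506 and 2746). Without the expression filter 1 was called in knockout granules, 4 in total RNA and 1 for the difference (5161, 3407 and 3476 genes). With the GC trend removed 4 were called in total RNA and 2 for the difference (770 and 1799 genes), and with block and GC removal together 1 and 1 (360 and 770 genes). Fits of only the groups compared called 0 in knockout granules and 6 in granule RNA between genotypes (0 and 10359 genes). Leaving out single libraries gave 0 to 6, 0 to 5, 0 to 7, 0 to 4 and 0 to 5 (at most 8118, 9707, 9627, 7834 and 9349 genes). The cause of these shifts was not tested, except that leaving out a library leaves a lone sample assumed to vary like the other groups. Among values of single members, leaving out a library reversed the sign in 15 of 320 cases and the other settings in 17 of 312. For Pitx1, GC removal alone and with the block gave 0.16 and 0.13, -0.95 and -0.86, 0.84 and 0.77, -0.27 and -0.21, and -1.11 and -0.98 in the same order, and single libraries gave -0.59 to 0.01, -0.59 to 0.80, -0.77 to 0.04, -0.66 to 0.77, and -0.29 to 1.06. In knockout granules against total, both GC fits turned Tbx2 to -0.65 and Twist1 to -0.42 and -0.38, and the blocked fit turned Prrx1 to 0.02. Single libraries gave there -0.24 to 0.57 for Tbx2, -1.08 to 0.91 for Prrx1 and -1.37 to 0.31 for Tbx15. Twist1 between genotypes in granule RNA was 0.03 by library size alone and -0.32 to 0.11 over single libraries. The genotype difference of Emx2 was 0.01 by library size alone and -0.79 to 0.30 over single libraries, and that of Prrx1 -2.01 to 0.02. Library size alone shifted the median gene by -0.1261 in control granules against total, -0.1067 in total RNA and 0.1966 in the genotype difference. The 8 member calls kept their direction in all 16 alternatives of each. Foxf1 passed in 13 of 16 in each of its 3 comparisons, Tbx2 in 13 in granule RNA and 6 in the control ratio, Tbx3 in 12 and 7, and Twist1 in 9. Low counts limited what could be read for Pitx1, Tbx4 and Tbx5.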
